A study of Mus musculus with 12 samples.

Results

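The 44 genes described here act in G2, the phase between DNA replication and division, and in mitosis. They were chosen by name rather than by a measured value, but with earlier results of these data known. All 44 were present among the 19357 genes with a transcript count in a kept well. The counts came from 12 plates of wells, each well holding 1 sorted LSK cell. LSK names blood progenitors without lineage markers that carry Sca-1 and Kit, sorted here from fetal liver of C57BL/6J mice at day 18.5. The labels assigned 4 plates to the double mutant, homozygous for Pcna K164R and for the Rev1 knockout allele, 3 to Rev1 knockout alone, 2 to homozygous Pcna K164R alone and 3 to wild type (WT). Rev1 encodes a translesion DNA polymerase. Pcna encodes the sliding clamp of replication, and K164R replaces the lysine that is ubiquitinated at stalled forks. Nothing says that plates came from separate fetuses, so that p-values measure only the variation among plates, part of which may be technical. All plates used the same set of well barcodes.

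Cells entering mitosis build up cyclin A and cyclin B, which activate Cdk1, and this drives condensation of chromosomes and assembly of the spindle. Kinases of the Aurora, Polo and Bub families control attachment of chromosomes to the spindle, and the anaphase-promoting complex then destroys cyclin B and securin. Most of these genes are transcribed late in the cell cycle through promoters that carry CHR elements, bound by the MuvB complex, and CCAAT boxes, bound by NF-Y. In fetal liver, stem cells and progenitors divide often, whereas most adult stem cells rest.

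RefSeq promoter windows (GRCm38.p6, 250 bases before to 50 after the start) were found for 37 of the 44 genes, 39 windows in all. The CHR letters TTTGAA, on either strand, lay in 28 of the 39 windows (71.8%) and in 17.9% of all 32851 windows of that length. The variant TTCGAA, its own reverse complement, lay in 4 of the 39 (10.3%) and in 1.56% of all windows. CCAAT, on either strand, lay in 29 of the 39 (74.4%) and in 37.4% of all windows. The motifs share no letters where they are found in the sequences below. Of the 7 promoters shown, those of Ccnb1, Birc5 and Cdca3 belong to the 3 genes called below. The other 4 belong to the kinase of cyclin B, both measured partners of the anaphase-promoting complex and the topoisomerase with the most transcripts, and none of those 4 genes passed the test. Each runs from base -120 to base -1 before the start, 5′ to 3′ on the strand of the gene, with CHR and CCAAT letters of either strand in capitals. Ccnb1 lies on the minus strand at chr13:100786487-100786606, Birc5 on the plus strand at chr11:117849117-117849236 and Cdca3 on the plus strand at chr6:124830056-124830175. Cdk1 lies on the minus strand at chr10:69352913-69353032 and Cdc20 on the minus strand at chr4:118437344-118437463. Ube2c lies on the plus strand at chr2:164769809-164769928 and Top2a on the minus strand at chr11:99024190-99024309.
Ccnb1: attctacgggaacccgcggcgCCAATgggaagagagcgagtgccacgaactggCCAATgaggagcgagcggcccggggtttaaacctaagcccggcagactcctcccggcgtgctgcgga
Birc5: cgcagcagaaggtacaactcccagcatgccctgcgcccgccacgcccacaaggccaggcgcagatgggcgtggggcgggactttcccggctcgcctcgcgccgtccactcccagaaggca
Cdca3: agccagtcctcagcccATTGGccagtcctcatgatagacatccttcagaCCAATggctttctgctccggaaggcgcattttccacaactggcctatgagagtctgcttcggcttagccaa
Cdk1: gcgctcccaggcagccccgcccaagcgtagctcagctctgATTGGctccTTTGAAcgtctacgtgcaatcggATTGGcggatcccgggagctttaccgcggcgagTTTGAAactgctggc
Cdc20: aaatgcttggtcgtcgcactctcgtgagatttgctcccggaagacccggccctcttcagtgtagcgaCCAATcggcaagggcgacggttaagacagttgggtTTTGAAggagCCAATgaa
Ube2c: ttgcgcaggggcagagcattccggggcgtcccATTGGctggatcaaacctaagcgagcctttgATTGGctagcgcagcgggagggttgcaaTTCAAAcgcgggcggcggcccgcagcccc
Top2a: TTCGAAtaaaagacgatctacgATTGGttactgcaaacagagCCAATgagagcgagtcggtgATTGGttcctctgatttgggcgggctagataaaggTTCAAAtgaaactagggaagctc

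In these lines Cdk1 carried TTTGAA at -71 and -15, Cdc20 at -18, and Ube2c and Top2a its reverse complement at -29 and -23. The Ccnb1 window held CCAAT at -99 and -67 and neither TTTGAA nor TTCGAA. Other variants of the CHR were not searched in any window. The window of Birc5 held none of the letters searched. Cdca3 carried CCAAT letters at -104 and -71, a further CCAAT from -4 that runs over the start, and TTTGAA beyond the start at base 31.

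A well was kept with at least 1000 transcript molecules, counted as UMIs, the random tags that mark single molecules, outside the spike-in RNAs. This kept 3088 of 4608 wells, between 82 and 381 a plate, with plate totals of 212938 to 11617420 UMIs. The smallest total belonged to double mutant replicate 3, whose median well held 1730 UMIs, against 7537 to 34853 in the other plates. After TMM, the scaling of library sizes for the gene tests, 1 UMI of a gene stood there for 8.67 counts per 1000000 (CPM). In that plate 3 of the 44 genes had no UMI. Its TMM factor was 0.549, against 0.973 to 1.115 in the other plates, which raises its TMM-normalised CPM. In its kept wells 2.42 of 1000 UMIs came from the 44 genes, against 4.71, 5.67 and 4.93 in WT plates. Without TMM scaling, Rev1 itself stood at 1.29, 2.48 and 4.70 CPM in double mutant replicates 1, 2 and 3, the last from 1 UMI. It stood at 13.7 CPM in the library labelled double mutant replicate 4. It stood at 6.00, 1.35 and 4.04 CPM in Rev1 knockout plates, 11.3 and 7.86 CPM in Pcna K164R plates and 11.0, 20.5 and 13.3 CPM in WT plates. The library labelled double mutant replicate 4 thus went against its label for this gene, and the summary values that rest on it are also given without it. The labels give 3 sort sessions and 5 flow cells, and no flow cell held both double mutant and WT plates. One flow cell held only WT replicate 1, and another only double mutant replicate 3 and the library labelled replicate 4. Across flow cells, double mutant replicates 1 and 2 are linked to WT replicates 2 and 3 only through Pcna K164R and Rev1 knockout plates.

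To separate how many cells used the genes from how strongly, 1000 UMIs were drawn at random from each kept well, and the well was called expressing when at least 5 of them (0.5%) came from the 44 genes. In the plates labelled double mutant, the expressing share was 58.8%, 63.1% and 19.5% in replicates 1, 2 and 3 and 63.6% in the library labelled replicate 4. It was 13.5%, 36.2% and 39.9% in Rev1 knockout plates, 54.0% and 42.1% in Pcna K164R plates and 34.1%, 41.6% and 31.6% in WT plates. All but replicate 3 of the plates labelled double mutant thus stood above every WT plate, both Pcna K164R plates did too, and the Rev1 knockout plates overlapped WT.

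The exact 95% binomial intervals, which cover counting error only, were 53.5% to 63.98%, 57.0% to 68.8%, 11.6% to 29.7% and 53.7% to 72.6% in the plates labelled double mutant. In WT plates they were 29.4% to 39.1%, 36.0% to 47.4% and 24.7% to 39.1%. The mean share was 51.2% ± 21.3 in the plates labelled double mutant (SD, n = 4) and 35.8% ± 5.23 in WT plates (SD, n = 3). The difference of 15.5 percentage points is smaller than the double mutant SD. Without replicate 3 the double mutant mean was 61.8% ± 2.60 (n = 3), 26.03 points above WT, and without the library labelled replicate 4 the difference was 11.4 points. Pcna K164R plates averaged 48.05% ± 8.35 (n = 2), 12.3 points above WT, and Rev1 knockout plates 29.8% ± 14.3 (n = 3), 5.94 points below WT, or 2.25 points above it without Rev1 knockout replicate 1. No p is given for these scores over chosen genes.

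Low shares came together in 1 sort session. The lowest share of all plates was in Rev1 knockout replicate 1 and the next in double mutant replicate 3, and these 2 plates make up session 2. Session and single plates cannot be told apart there. Within session 2 the double mutant plate had 19.5% and the Rev1 knockout plate 13.5%. Within session 1 the double mutant plates had 58.8% and 63.1%, the Pcna K164R plates 54.0% and 42.1%, and the WT plate 34.1%. Within session 3 the library labelled double mutant had 63.6%, the Rev1 knockout plates 36.2% and 39.9%, and the WT plates 41.6% and 31.6%. In each of the 3 sessions every plate labelled double mutant therefore stood above every other plate of its session at this threshold and depth. In session 2 the intervals of the 2 plates overlapped, at 11.6% to 29.7% for the double mutant and 9.95% to 17.6% for Rev1 knockout, and with wells thinned to 2000 UMIs the order turned, at 9.68% for the double mutant and 15% for Rev1 knockout.

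**Figure D1:**
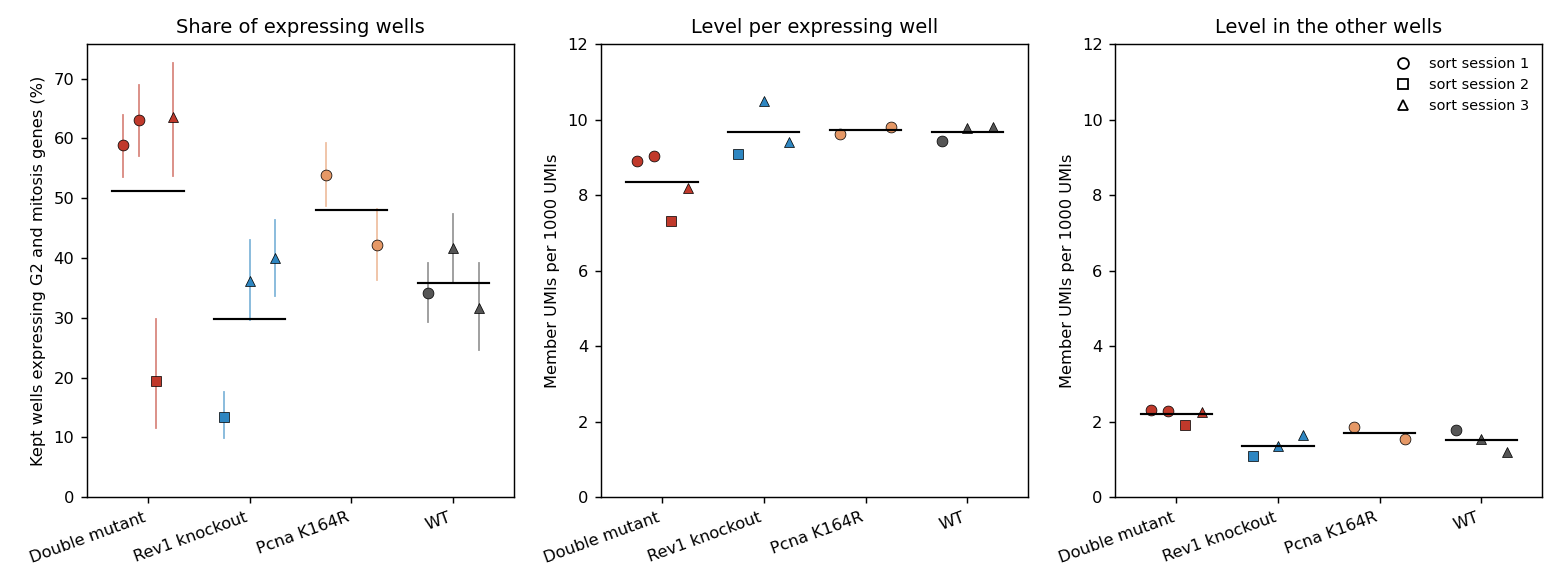
Share of kept wells expressing the 44 genes (left, %, bars are exact 95% binomial intervals), mean UMIs of the 44 genes per 1000 in expressing wells (middle) and in the other wells (right), by plate; black lines are group means and marker shapes are sort sessions. Shares are 58.8% to 63.6% in 3 plates labelled double mutant and 19.5% in replicate 3, against 31.6% to 41.6% in WT. In this random draw, levels per expressing well are at most 9.03 in the plates labelled double mutant and at least 9.44 in WT, but with another draw the groups overlap.

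The level per expressing well had a lower mean in the plates labelled double mutant than in WT. It was 8.89, 9.03 and 7.31 UMIs of the 44 genes per 1000 in double mutant replicates 1, 2 and 3 and 8.18 in the library labelled replicate 4. It was 9.09, 10.5 and 9.41 in Rev1 knockout plates, 9.63 and 9.81 in Pcna K164R plates, and 9.44, 9.79 and 9.80 in WT plates. In this draw of UMIs every plate labelled double mutant was below every WT plate, with means of 8.35 ± 0.788 (SD, n = 4) and 9.67 ± 0.204 (SD, n = 3). With another random draw double mutant replicates 1 and 2 had 8.83 and 8.80 and WT replicate 1 had 8.63, so that 2 of the 4 plates labelled double mutant were below every WT plate. It was likewise 2 of 4 at 2000 UMIs and without thinning, and 1 of 4 at a threshold of 3 UMIs. The difference in means was -1.32 UMIs per 1000, -1.34 in the other draw, -0.975 without replicate 3 and -1.26 without the library labelled replicate 4. Within session 1 its direction depended on the draw, at -0.478 here, 0.180 in the other draw, 0.167 at 2000 UMIs, 0.268 without thinning and 0.534 at a threshold of 3 UMIs. Within session 3 it was -1.62, and that rests on the library labelled replicate 4. Since the threshold of 5 UMIs cuts the level off from below, this level depends on how many wells lie just above it.

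In the wells that were not expressing, the 44 genes together had 2.32, 2.29 and 1.91 UMIs per 1000 in double mutant replicates 1, 2 and 3 and 2.26 in the library labelled replicate 4, against 1.79, 1.54 and 1.19 in WT wells. Every plate labelled double mutant was above every WT plate. Rev1 knockout plates had 1.08, 1.37 and 1.64 and Pcna K164R plates 1.86 and 1.56. Wells without a single UMI of the 44 genes made up 4.2%, 3.36%, 13.4% and 1.87% of the plates labelled double mutant and 11.8%, 15.4% and 23.4% of WT plates. Free RNA from broken cells gives such low counts as well, and its part was not tested. The wells below 1000 UMIs held 5.28 UMIs of the 44 genes per 1000, against 5.82 in kept wells.

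The whole distribution shows where the plates part. At a threshold of 3 UMIs the shares of wells were 79.3%, 81.0%, 45.1% and 79.4% in the plates labelled double mutant and 55.1%, 55.4% and 42.7% in WT plates. At 10 UMIs they were 18.5%, 23.5%, 6.1% and 18.7% in the plates labelled double mutant and 13.1%, 19.02% and 15.8% in WT plates. The groups overlapped at 10 UMIs, with means of 16.7% ± 7.44 (SD, n = 4) and 15.98% ± 2.95 (SD, n = 3), and the double mutant mean was 20.2% ± 2.84 without replicate 3 and 16.03% ± 8.96 without the library labelled replicate 4. Without thinning, the well at the lower quartile of a plate gave 0.369%, 0.398%, 0.165% and 0.372% of its UMIs to the 44 genes in the plates labelled double mutant, against 0.130%, 0.126% and 0.074% in WT. The well at the 90th percentile gave 1.05%, 1.16%, 0.539% and 0.995% in the plates labelled double mutant, against 1.007%, 1.23% and 1.09% in WT. At the lower quartile every plate labelled double mutant was above every WT plate. At the 90th percentile double mutant replicates 1 and 2 lay within the range of WT, and replicate 3 and the library labelled replicate 4 below it.

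**Figure D2:**
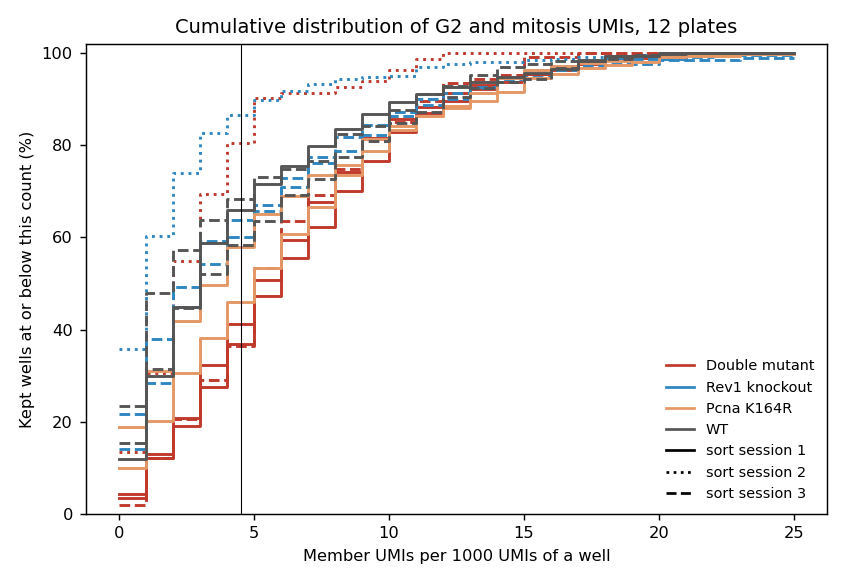
Cumulative share of kept wells (%) against UMIs of the 44 genes per 1000 UMIs of a well, 1 line per plate, with colour for genotype and line style for sort session; the vertical line marks the threshold of 5. Apart from double mutant replicate 3, the double mutant lines lie lowest up to about the threshold and come close to the WT lines further right, where the mean shares of wells at 10 UMIs or more are 16.7% in the plates labelled double mutant and 15.98% in WT.

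Over all kept wells, the 44 genes averaged 5.43 ± 1.66 UMIs per 1000 in the plates labelled double mutant (SD, n = 4) and 4.43 ± 0.534 in WT plates (SD, n = 3). The split into pieces was made on the group means of share and levels, whose products give 5.35 in the plates labelled double mutant and 4.43 in WT. Of that difference of 0.920, the larger share of expressing wells gave 1.11, the lower level per expressing well gave -0.575 and the higher level of the other wells gave 0.389. Without double mutant replicate 3 the difference was 1.82, of which 1.90 came from the share, and without the library labelled replicate 4 it was 0.685, of which 0.817 came from the share. For Pcna K164R the difference from WT was 1.13, of which 0.992 came from the share and 0.018 from the level per expressing well. For Rev1 knockout the difference was -0.587, of which -0.489 came from the share. This sign rests on Rev1 knockout replicate 1, in session 2, where there was no WT plate. Without it the difference was 0.290, of which 0.187 came from the share.

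Single genes are given here as a description, since the wells were picked by the summed UMIs of the same 44 genes. In the plates labelled double mutant 30 of the 44 genes were seen in a larger mean share of thinned wells than in WT and 14 in a smaller one, with a median ratio of 1.13. It was 35 larger without replicate 3, and 27 larger and 17 smaller without the library labelled replicate 4. The mean CPM per well was lower in expressing wells labelled double mutant than in expressing WT wells for 37 of the 44 genes, with a median ratio of 0.816. In the other wells it was higher in the plates labelled double mutant for 40 of the 44, with a median ratio of 1.65. Without replicate 3 these counts were 34 lower and 41 higher, and without the library labelled replicate 4 they were 33 lower and 41 higher. For Pcna K164R against WT, the CPM in expressing wells was higher for 21 genes and lower for 23, with a median ratio of 0.994. For Rev1 knockout against WT it was higher for 22 and lower for 22, with a median ratio of 1.00.

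Plate sums of all kept wells were tested with edgeR's quasi-likelihood test over 12221 genes, with genotype and sort session in 1 fit and a Benjamini-Hochberg adjusted threshold of 0.05. All 44 genes passed the filter on low counts. In the plates labelled double mutant against WT, 3 of the 44 rose and 0 fell, where 4.21% of all genes tested were called, 1.8% higher and 2.41% lower. The 3 were Ccnb1, Birc5 and Cdca3. Of the 44, 40 had a positive log2 fold change, with a median of 0.48, against 46.6% of all genes tested and a median of -0.04. A further 16 were higher at an unadjusted p under 0.05 (19 in all), and 0 were lower. Of all 12221 genes tested, 1244 were higher and 1534 lower at that p. Without the library labelled replicate 4, 42 were positive with a median of 0.57, and 1 passed, Ccnb1, where 0.0165% of all genes were called higher.

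The number of calls depends on single plates. It was 14 without double mutant replicate 3, where 9.06% of all genes were called higher, and 15 without Rev1 knockout replicate 1, where 9.7% were. These are the only plates of session 2, so with either left out the session term takes up the other. Both settings are thus nearly the same fit without session 2. In the main fit, double mutant replicate 3 enters the fold changes against WT only through Rev1 knockout replicate 1. It was 0 when any 1 WT plate, Rev1 knockout replicate 3, or either double mutant plate of session 1 was left out, 1 without Rev1 knockout replicate 2 or the library labelled double mutant replicate 4, and 2 without either 1 of the Pcna K164R plates. By DESeq2 13 genes were called, where 5.53% of all genes were called higher. With no term for session 0 were called, where 153 of 12221 genes were called higher. With flow cell in place of session 0 were called, as were 0 of all 12221 genes, while all 44 fold changes were positive and their median was 0.94. These fold changes rest on double mutant replicates 1 and 2 and WT replicates 2 and 3, linked through Pcna K164R and Rev1 knockout plates. The other double mutant and WT plates shared their flow cells with no other genotype. In session 3 alone, whose only plate labelled double mutant is replicate 4, 36 were positive and the median was 0.23. With any 1 of the 12 plates left out, 37 to 42 fold changes were positive. The lowest number was without WT replicate 1, where the median was 0.35 and 5 genes were higher at an unadjusted p under 0.05, as 5 were with no term for session. Of all genes, 2390 of 12188 and 2681 of 12221 were under that p in these 2 settings, in either direction.

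Among the cyclins, Cdk1 and its regulators, all 8 fold changes were positive, with a median of 0.70. Ccnb1, the cyclin B that carries Cdk1 into mitosis, had 320, 289 and 191 CPM in double mutant replicates 1, 2 and 3 and 214 CPM in the library labelled replicate 4, against 116, 147 and 147 CPM in WT plates. No plate labelled double mutant overlapped WT after TMM scaling, which for replicate 3, with 22 UMIs of Ccnb1, rests on its factor of 0.549. Ccnb1 rose by a log2 fold change of 1.09 ± 0.24 (SE; edgeR adjusted p = 0.0293). Without the library labelled replicate 4 it was 1.47 (edgeR adjusted p = 0.0463). Rev1 knockout plates had 62.6, 147 and 159 CPM and Pcna K164R plates 226 and 225 CPM, both above every WT plate (edgeR adjusted p = 1.00). Ccnb1 was seen in 26.6%, 20.5%, 7.32% and 24.3% of thinned wells labelled double mutant and in 7.61%, 11.2% and 12.3% of WT wells. In expressing wells it averaged 295 ± 82.5 CPM in the plates labelled double mutant and 273 ± 56.5 CPM in WT, and in the other wells 114 ± 33.4 and 42.8 ± 4.2 CPM. Cdk1 itself, the kinase that cyclin B activates, had 182 to 364 CPM in the plates labelled double mutant and 183 to 293 CPM in WT plates (0.52 ± 0.21, edgeR adjusted p = 0.161).

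Cdca3, an adaptor for the degradation of the Cdk1 inhibitor Wee1, had 142, 138 and 43.4 CPM in double mutant replicates 1, 2 and 3 and 140 CPM in the library labelled replicate 4. WT plates had 78.5, 87.8 and 85.7 CPM. Replicate 3, where Cdca3 had 5 UMIs, was below WT and the other plates labelled double mutant were above it. The log2 fold change was 0.73 ± 0.17 (SE; edgeR adjusted p = 0.0368), and 0.74 without the library labelled replicate 4, where it was not called (edgeR adjusted p = 0.269).

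Of the 7 mitotic kinases, 0 passed the test, and all 7 fold changes were positive, between 0.13 and 0.87. Aurka, the Aurora kinase of the centrosomes, had 108, 118 and 0 CPM in double mutant replicates 1, 2 and 3 and 98.5 CPM in the library labelled replicate 4. WT plates had 49.0, 58.4 and 60.6 CPM. A count of 0 in replicate 3 allows up to 26.02 CPM at 3 UMIs, still under every WT plate. The log2 fold change was 0.87 ± 0.28 (SE; edgeR adjusted p = 0.0888). Bub1b, the kinase-like BubR1 of the spindle checkpoint, had 72.8, 85.1 and 34.7 CPM and, in the library labelled replicate 4, 92.1 CPM, against 52.4, 77.8 and 59.9 CPM in WT plates, with overlap (0.49 ± 0.17, edgeR adjusted p = 0.121).

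Both partners of the anaphase-promoting complex missed the threshold. Ube2c, the ubiquitin-conjugating enzyme of the complex, had 534, 525 and 43.4 CPM in double mutant replicates 1, 2 and 3 and 410 CPM in the library labelled replicate 4, against 202, 228 and 284 CPM in WT plates. Its log2 fold change was 0.87 ± 0.29 (SE; edgeR adjusted p = 0.100). Replicate 3, with 5 UMIs, was below WT, and the others were above it. Cdc20, the activator of the complex and the target of the checkpoint, had 90.7, 89.8 and 34.7 CPM and, in the library labelled replicate 4, 133 CPM, against 49.5, 78.7 and 103 CPM in WT plates (0.70 ± 0.19, edgeR adjusted p = 0.0568). The groups overlapped.

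Of the 8 kinetochore and chromosomal passenger genes, 1 rose and all 8 fold changes were positive, with a median of 0.42. Birc5 encodes survivin, a subunit of the chromosomal passenger complex. It had 235, 223.71 and 286 CPM in double mutant replicates 1, 2 and 3 and 262 CPM in the library labelled replicate 4, against 133, 155 and 132 CPM in WT plates. The groups stood apart after TMM scaling, which for replicate 3, with 33 UMIs of Birc5, rests on its factor of 0.549. The log2 fold change was 1.00 ± 0.24 (SE; edgeR adjusted p = 0.0386). Without the library labelled replicate 4 it was 1.16 and was not called (edgeR adjusted p = 0.173). In the wells that were not expressing, Birc5 averaged 138 ± 10.1 CPM in the plates labelled double mutant and 63.1 ± 12.4 CPM in WT, whereas in expressing wells it averaged 274 ± 42.8 and 256.04 ± 37.7 CPM. Cdca8, which encodes borealin of the same complex, had 172, 165 and 69.4 CPM and, in the library labelled replicate 4, 143.96 CPM, against 97.9, 107 and 100.56 CPM in WT plates (0.62 ± 0.17, edgeR adjusted p = 0.0615).

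Of the 12 motor and spindle genes, 0 passed the test and 10 fold changes were positive. Hmmr, a spindle-associated protein, had 138, 175 and 495 CPM in double mutant replicates 1, 2 and 3 and 126 CPM in the library labelled replicate 4, against 91.2, 83.4 and 84.6 CPM in WT plates. All 4 were above WT (1.08 ± 0.40, edgeR adjusted p = 0.133). In replicate 3 the 57 UMIs of Hmmr lay in 34 wells, at most 4 in a well, so that no single well carried that value. Kif2c, a kinesin that takes microtubules apart at centromeres, had 54.7, 55.6 and 43.4 CPM and, in the library labelled replicate 4, 57.6 CPM, against 33.5, 53.1 and 47.6 CPM in WT plates (0.50 ± 0.19, edgeR adjusted p = 0.136), with overlap.

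The negative values were of Ckap5, a microtubule polymerase, Kif23, the motor of centralspindlin, Cep55, which acts at abscission, and Fam64a, with log2 fold changes of -0.23, -0.25, -0.26 and -0.20. None passed the test. Ckap5 was the 1 gene of the 44 with every plate labelled double mutant below every WT plate, at 83.5, 87.6 and 52.1 CPM and, in the library labelled replicate 4, 86.4 CPM, against 91.2, 125 and 94.7 CPM, a pattern that 11.0% of all genes tested had. Kif23 was seen in 6.16%, 6.34%, 6.10% and 5.61% of thinned wells labelled double mutant and in 11.8%, 11.8% and 11.1% of WT wells. For Kif23 the share of wells was thus lower in the plates labelled double mutant, without overlap, where the share for the 44 genes together was higher in all but replicate 3. How many of all genes had this pattern in the share of wells was not counted. In CPM the plates overlapped for Kif23 (edgeR adjusted p = 0.555).

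Of the 3 cytokinesis genes 0 passed. Ect2, the exchange factor that starts furrowing, had 79.8, 89.0 and 78.1 CPM and, in the library labelled replicate 4, 79.5 CPM, against 56.4, 109 and 65.3 CPM in WT plates (0.29 ± 0.24, edgeR adjusted p = 0.516). Anln, the scaffold anillin of the contractile ring, had 57.3, 83.3 and 43.4 CPM and, in the library labelled replicate 4, 71.8 CPM, against 55.3, 79.98 and 47.6 CPM (0.24 ± 0.24, edgeR adjusted p = 0.589). Both overlapped WT.

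The most counted of the 44 were Top2a and Mki67, with 40436 and 29246 UMIs over all plates. Mki67, the Ki-67 coat protein of mitotic chromosomes, had 499, 545 and 495 CPM in double mutant replicates 1, 2 and 3 and 438 CPM in the library labelled replicate 4, against 403, 301 and 295 CPM in WT plates. All 4 were above WT after TMM scaling (0.62 ± 0.27, edgeR adjusted p = 0.195), which for replicate 3 rests on its factor of 0.549. Top2a, the topoisomerase that untangles sister chromosomes, had 693, 699 and 451 CPM and, in the library labelled replicate 4, 496 CPM, against 575, 500 and 415 CPM, with overlap (0.30 ± 0.22, edgeR adjusted p = 0.448).

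**Figure D3:**
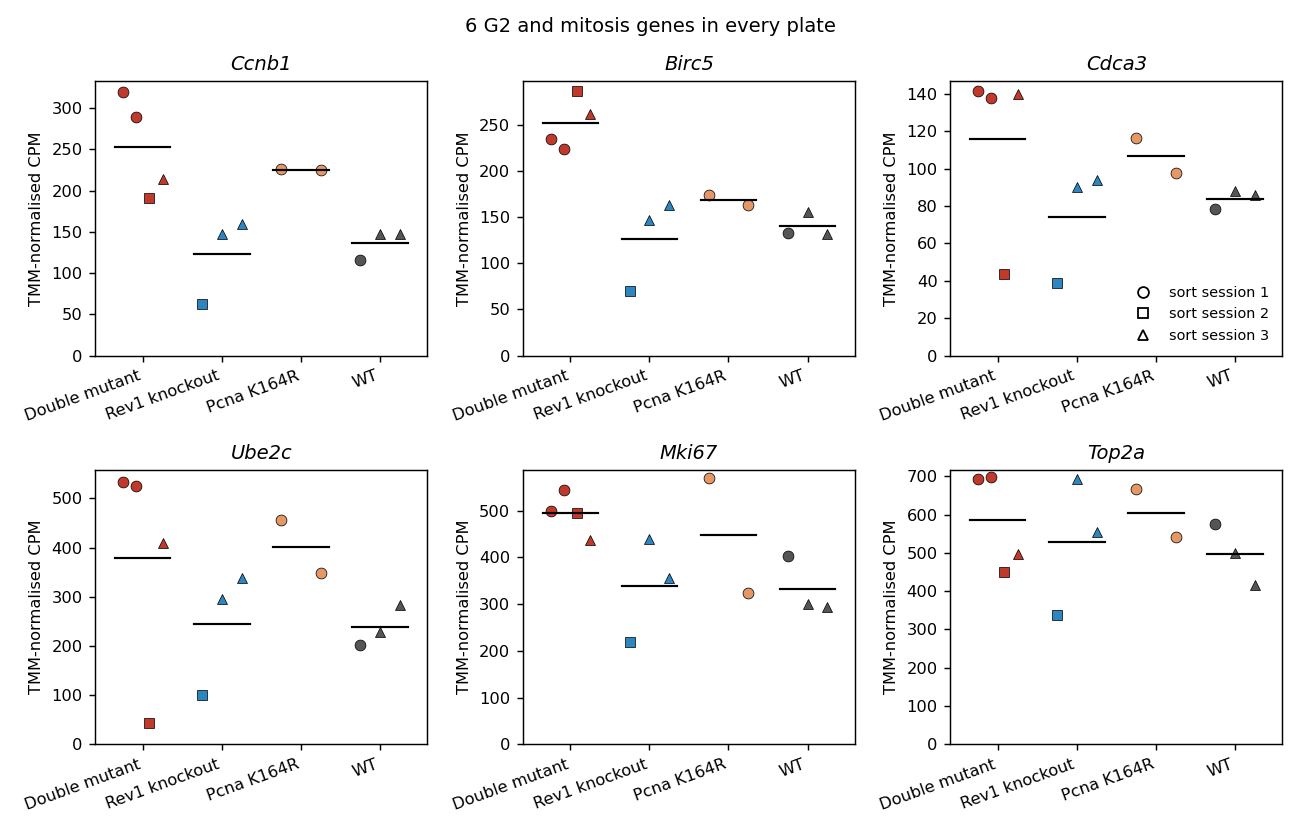
TMM-normalised CPM of 6 of the 44 genes in every plate (points), with group means (black lines) and sort sessions as marker shapes. Ccnb1, Birc5 and Mki67 lie above every WT plate in all 4 plates labelled double mutant, while Cdca3 and Ube2c fall to 43.4 CPM in double mutant replicate 3. For these 3 genes the place of replicate 3 above WT rests on its TMM factor of 0.549.

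Over the 44 genes, 6 had every plate labelled double mutant above every WT plate after TMM scaling, where 4.75% of all genes tested did. Beside Ccnb1, Birc5, Hmmr and Mki67 these were Tpx2, an activator of Aurora A, and Cdc25c, a phosphatase that activates Cdk1. For Ccnb1, Birc5, Mki67 and Tpx2 the place of replicate 3 above WT rests on its TMM factor of 0.549. Without replicate 3 there were 18, where 18.9% of all genes did, and without the library labelled replicate 4 there were 10, where 6.77% did.

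For Pcna K164R against WT 0 of the 44 passed the test, where 0.0% of all genes were called, by edgeR and likewise 0 of the 44 by DESeq2. At an unadjusted p under 0.05, 2 were higher by edgeR, where 100 of 12221 genes were higher and 139 lower. All 44 fold changes were positive, between 0.04 and 0.78 with a median of 0.34, against 47.4% of all genes tested. Without WT replicate 1, the only WT plate in the session of both Pcna K164R plates, 30 of the 44 were positive and the median was 0.13. For 22 of the 44 both Pcna K164R plates were above every WT plate, where 12.2% of all genes were. The smallest p, 0.0102 unadjusted, belonged to Cdc20, at 77.0 and 100.3 CPM in Pcna K164R plates (0.73 ± 0.24, edgeR adjusted p = 1.00).

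For Rev1 knockout against WT 0 of the 44 passed, where 0.0% of all genes were called, with 0 also by DESeq2 and 0 at an unadjusted p under 0.05. Of all 12221 genes, 503 were higher and 613 lower at that p by edgeR. Fold changes were positive for 27 of the 44, with a median of 0.11, and for 0 of the 44 was every Rev1 knockout plate above every WT plate, where 6.1% of all genes were. These comparisons and that of the double mutant share the WT plates.

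For the double mutant against Rev1 knockout, 1 of the 44 rose, where 1.75% of all genes were called and 0.663% were called higher. This was Birc5, at 70 to 163 CPM in Rev1 knockout plates, with a log2 fold change of 1.12 ± 0.25 (SE; edgeR adjusted p = 0.0490). It was not called without any 1 plate labelled double mutant other than replicate 3, without Rev1 knockout replicate 2 or 3, either Pcna K164R plate, or WT replicate 2 or 3. The number called was 2 without double mutant replicate 3, where 274 of 12018 genes were called higher. It was 3 without Rev1 knockout replicate 1, where 285 of 12169 genes were called higher. For 6 of the 44 every plate labelled double mutant was above every Rev1 knockout plate after TMM scaling, where 5.82% of all genes were. For the double mutant against Pcna K164R 0 of the 44 passed, where 0.0409% of all genes were called, with 0 by DESeq2 and 0 at an unadjusted p under 0.05. Of all 12221 genes, 506 were higher and 669 lower at that p by edgeR. The median log2 fold change of the 44 was 0.07. Birc5 and Kif2c were higher in every plate labelled double mutant than in both Pcna K164R plates, where 4.12% of all genes were. For double mutant replicate 3 this rests on its TMM factor of 0.549. Kif23, Nusap1, Ckap5, Cep55 and Fam64a were lower in every plate labelled double mutant than in both Pcna K164R plates, where 10.9% of all genes were.

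The share of expressing wells and the test above read the same genes, so wells were also picked by other genes. Those were likewise listed with earlier results of these data known. Picking wells with at least 5 of 1000 UMIs from 55 further G2 and mitosis genes gave shares of 48.5%, 60.1%, 30.5% and 59.8% in the plates labelled double mutant and 36.2%, 45.9% and 25.2% in WT plates. In these wells the 44 genes had 7.75, 8.14, 5.04 and 7.17 UMIs per 1000 in the plates labelled double mutant and 7.92, 8.48 and 9.91 in WT plates. Summed over these wells alone, 0 of the 44 passed edgeR's test between the double mutant and WT, where 5.53% of 10883 genes did, and 1 was higher and 5 lower at an unadjusted p under 0.05. Of the 10883 genes, 2497 were under that p in either direction. Of the 44 fold changes 16 were positive, with a median of -0.14. The lowest adjusted p, 0.0517, was of Ckap5, at -0.67 ± 0.19 (SE, edgeR). Ccnb1 had 0.27 ± 0.27 and Birc5 0.40 ± 0.19 in these wells, at edgeR adjusted p-values of 0.600 and 0.213. For the double mutant against Pcna K164R 0 of the 44 passed edgeR's test in these wells, where 0.0459% of genes did, and 0 against Rev1 knockout, where 2.1% did. At an unadjusted p under 0.05, 4 and 5 of the 44 were lower in these comparisons. Of the 10883 genes, 1170 and 1860 were under that p in either direction. For Pcna K164R against WT 28 of the 44 were positive there, with a median of 0.10, and for Rev1 knockout 24, with a median of 0.05. The gene tests in these wells were added after the other results had been seen.

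**Figure D4:**
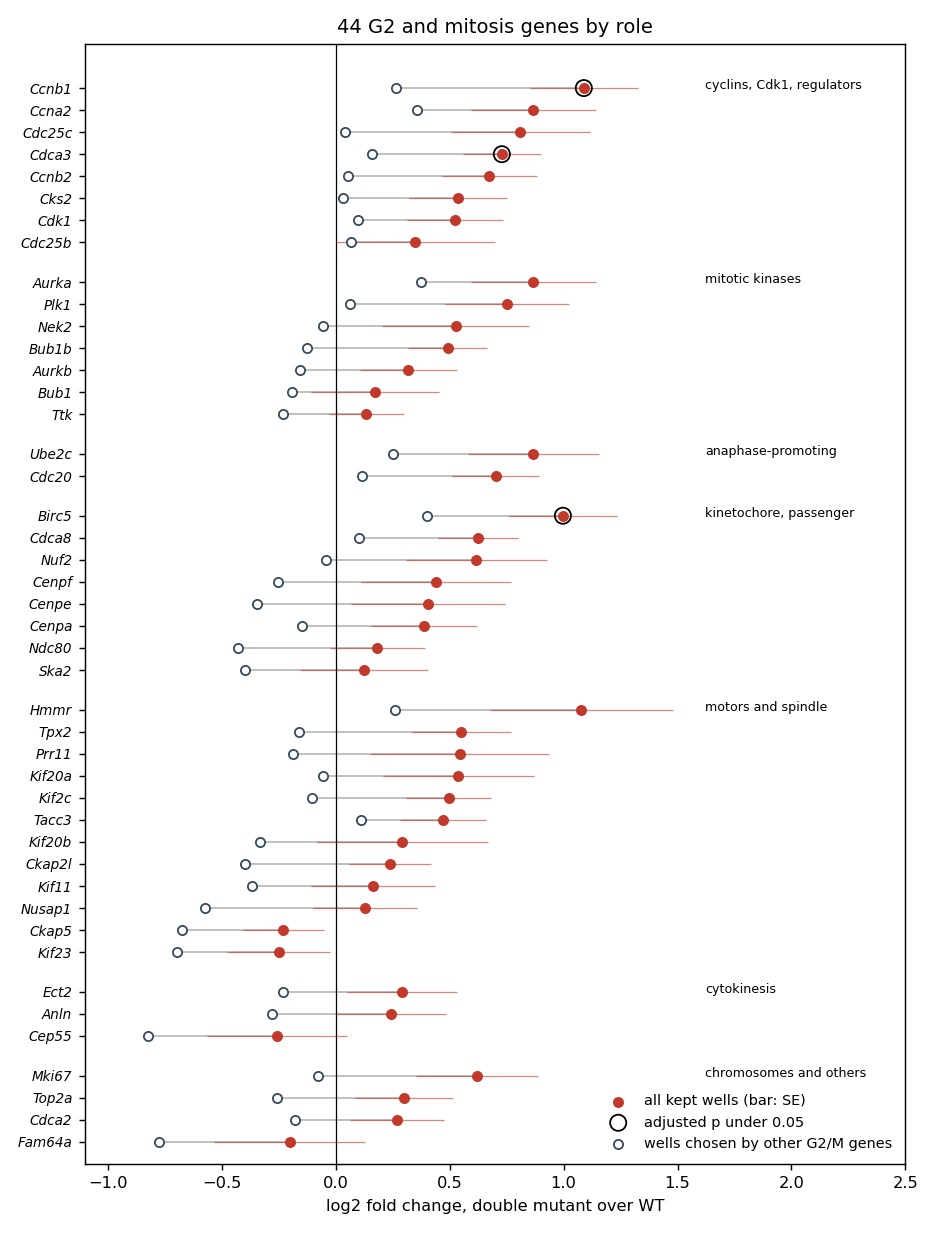
Log2 fold change of the 44 genes in the plates labelled double mutant over WT, by role, in all kept wells (filled, bars are SE, rings mark an edgeR adjusted p under 0.05) and in wells picked by 55 other G2 and mitosis genes (open). In all wells 40 of 44 points lie to the right of 0 with a median of 0.48, and in the picked wells 16 of 44 do, with a median of -0.14.

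The 55 further genes gave 3 calls in the plates labelled double mutant against WT, all higher, where 1.8% of all genes were called higher, with 50 of 55 fold changes positive and a median of 0.35. These were Gtse1, which binds microtubules and p53, Tubb4b, a beta-tubulin, and Sapcd2, a regulator of spindle orientation, at 1.09 ± 0.23, 1.03 ± 0.23 and 1.24 ± 0.30 (log2, SE; edgeR adjusted p = 0.0253, 0.0297 and 0.0392). Of 45 S-phase genes 2 rose, Ccne1, which drives entry into S phase with Cdk2, and Cdc6, which loads the replicative helicase. They stood at 1.36 ± 0.26 and 0.82 ± 0.20 (edgeR adjusted p = 0.0202 and 0.0396), with 40 of 45 positive and a median of 0.38, against the same 1.8% of all genes. Without the library labelled replicate 4, 0 of the 55 and 0 of the 45 passed edgeR's test, with 51 and 30 positive. Without replicate 3, 9 of the 55 and 18 of the 45 rose, where 9.06% of all genes did. Against Rev1 knockout, Gtse1, Ccne1 and Rrm2, a subunit of ribonucleotide reductase, passed as well, at 1.35, 1.49 and 1.70.

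Crossing both lists by well, with the same threshold of 5 UMIs for the S-phase genes, wells with neither list made up 13.7%, 14.9% and 65.9% of double mutant replicates 1, 2 and 3 and 11.2% of the library labelled replicate 4. They made up 48.01%, 33.3% and 30.5% of Rev1 knockout plates, 21.5% and 29.3% of Pcna K164R plates and 38.1%, 28.5% and 44.4% of WT plates. Wells with both lists made up 32.8%, 29.1%, 2.44% and 51.4% of the plates labelled double mutant, against 17.1%, 22.0% and 15.2% of WT plates. Apart from replicate 3, the plates labelled double mutant had more wells with both lists and fewer with neither than any WT plate.

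**Figure D5:**
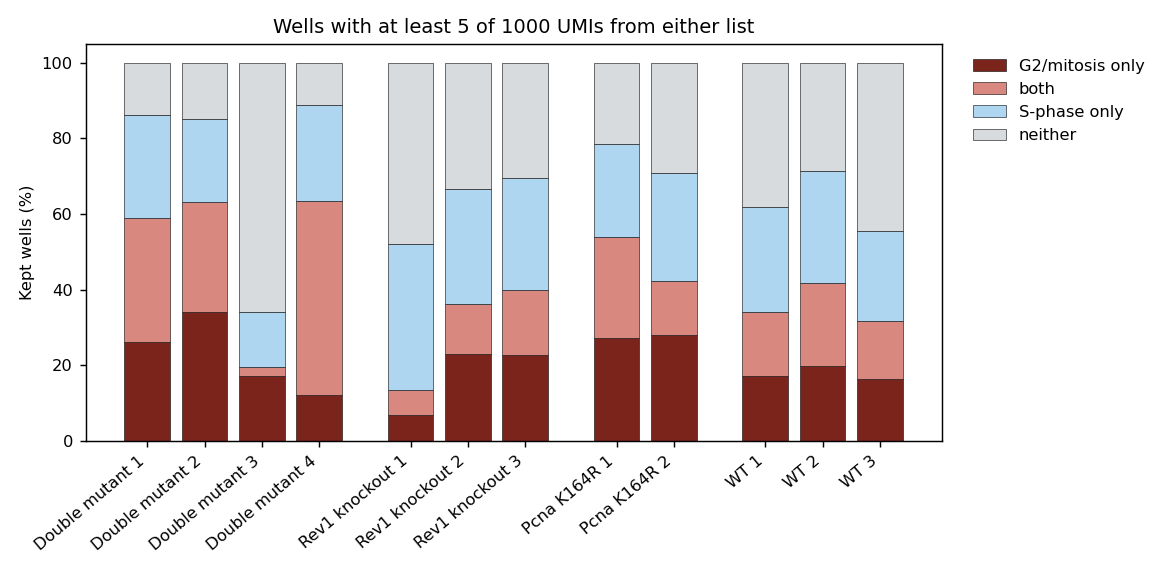
Kept wells (%) of each plate by whether at least 5 of 1000 UMIs came from the 44 G2 and mitosis genes, from 45 S-phase genes, from both or from neither. Wells with neither list are 11.2% to 14.9% in the plates labelled double mutant other than replicate 3, where they are 65.9%, and 28.5% to 44.4% in WT.

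Cdkn1a, the p21 inhibitor of cyclin-dependent kinases, was lower in expressing than in other wells in 11 of the 12 plates. In double mutant replicates 1, 2 and 3 and the library labelled replicate 4 it averaged 68.6, 92.4, 111 and 47.5 CPM in expressing wells and 97.2, 125, 42.1 and 114 CPM in the others. In WT plates it averaged 12.1, 2.10 and 0.17 CPM in expressing wells and 20.8, 14.8 and 21.8 CPM in the others. The exception was double mutant replicate 3, whose 16 expressing wells had a median of only 1504.5 UMIs. In Rev1 knockout plates it averaged 12.9, 9.64 and 7.04 CPM in expressing wells and 14.0, 14.95 and 14.6 CPM in the others, and in Pcna K164R plates 36.8 and 16.9 CPM in expressing wells and 40.5 and 37.25 CPM in the others. Within expressing wells Cdkn1a was thus higher in every plate labelled double mutant, and in both Pcna K164R plates, than in any WT plate. For replicate 3 this rests on few molecules. Expressing wells also held more UMIs, with median ratios to the other wells of 1.33 to 1.72 in all plates but replicate 3, where it was 0.838.

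Some markers of the sorted and of other cells differed between the plates labelled double mutant and WT. Kit had 65.8 to 247 CPM in the plates labelled double mutant and 359 to 562 CPM in WT, and Ly6a, which encodes Sca-1, 0 to 29.4 and 58.5 to 83.8 CPM. Wells with at least 3 of 1000 UMIs from erythroid genes, of which 17 of the 20 listed were in the files, made up 8.96%, 15.7%, 3.66% and 21.5% of the plates labelled double mutant and 4.2%, 1.97% and 2.34% of WT plates. The summed erythroid list ranged from 376 to 1702 CPM in the plates labelled double mutant and from 198 to 571 CPM in WT, and 1 of its listed genes was at 0 in the plates labelled double mutant. The stem cell list of 8 genes summed to 225 to 403 CPM in the plates labelled double mutant and 804 to 920 CPM in WT, with none at 0, the lymphoid list of 7 genes to 82.0 to 253 and 489 to 603 CPM, and the megakaryocyte list of 5 genes to 110 to 164.5 and 245 to 287 CPM, none of which overlapped. The granulocyte-monocyte list overlapped, at 587 to 1006 CPM in the plates labelled double mutant and 641 to 5169 CPM in WT. So did the macrophage list, at 111 to 197 and 27.8 to 375 CPM, the mast cell and basophil list, at 4.70 to 229 and 11.1 to 165 CPM, and the hepatocyte list, at 4.60 to 14.1 and 5.50 to 13.6 CPM. Outside the erythroid-marker wells, the expressing share was 58.2%, 62.8%, 19.0% and 59.5% in the plates labelled double mutant and 33.7%, 41.1% and 31.1% in WT, close to the shares in all wells. Without those wells 0 of the 44 genes passed edgeR's test, where 98 of 12098 genes were called higher. Still, 40 of 44 fold changes were positive, and their median was 0.39. The part of the stem cell, lymphoid and megakaryocyte lists in the shares was not tested.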

How the data were processed

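SORT-seq, named in the labels' protocols, tags the end of each mRNA with a well barcode and a UMI. BWA 0.7.15 and GRCm38 (mm10) are named, per the submitters' processing notes, with no role; the counting tool is not given in the sources used here. The authors deposited observed UMI counts per gene and well, used here, and expected counts corrected for repeated barcodes, an alternative. The deposited read counts were not used. The members and lists were chosen with earlier results of these data known. Wells with at least 1000 UMIs outside ERCC were summed per plate. edgeR 4.0.16 (R 4.3.3) fitted genotype and sort session over all 12 plates (TMM, default filter, quasi-likelihood test, Benjamini-Hochberg over 12221 genes); the fit was tested on simulated data. DESeq2 1.42.0 was an alternative, and expected counts were rounded. CPM values are TMM-normalised, except those of Rev1, Kit, Ly6a and the marker lists and means over wells. Genes with values for every plate passed a comparison, had 1 of the 2 smallest p of their role in the double mutant against WT, or were among the 3 most counted; genes with a negative fold change and those without overlap were named after their values were seen. Plates of a genotype were compared over genes by chi-square, at least 8.70 per degree of freedom, and none were near-identical. No doublet caller was run on these sorted wells. Shares carry 95% Clopper-Pearson intervals. Promoters are RefSeq's, GRCm38.p6.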

Additional observations from a re-analysis of the deposited data

Results flagged for a closer look

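Within the plates labelled double mutant, 20 sets of 4 values were screened for a plate far from the other 3, and 6 stood out, where chance flags about 1 in 20. Double mutant replicate 3 stood apart at 19.5% expressing wells, at 1.91 UMIs of the 44 genes per 1000 in the other wells, at 43.4 CPM for Cdca3, at 0 CPM for Aurka and at 494.75 CPM for Hmmr. This plate held 515 UMIs of the 44 genes in all, 3 of the 44 were at 0 and 9 had 1 to 3 UMIs. Double mutant replicate 2 stood apart at 89.0 CPM for Ect2, where the other plates labelled double mutant lay between 78.1 and 79.8 CPM.

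The 1520 wells under 1000 UMIs, which entered no comparison, held 2009 UMIs of the 44 genes, or 5.28 per 1000. By plate this was 5.71, 6.19, 3.88 and 6.42 per 1000 in the plates labelled double mutant, 2.10, 4.30 and 5.42 in Rev1 knockout plates, 6.06 and 5.46 in Pcna K164R plates and 3.61, 5.20 and 4.99 in WT plates.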

How the results depend on the processing

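No paired analysis was possible because replicate numbers here only follow the order of deposit. Of the 44 genes, 0 passed in Rev1 knockout against WT, Pcna K164R against WT and the double mutant against Pcna K164R under every alternative run. For the double mutant against WT 3 passed in the main setting, where 220 of 12221 genes were called higher. Brackets below give such numbers over all genes. The number of the 44 was 9 without a filter on low counts (591 of 19357), 13 by DESeq2 (676 of 12221) and 12 for both groups alone (916 of 10697). At a well minimum of 3000 UMIs it was 5 (292 of 12101), without mitochondrially encoded genes 5 (328 of 12170) and with wells thinned to 1000 UMIs 1 (58 of 6570). Without a batch term it was 0 (153 of 12221), and 0 with flow cell as the batch (0 of 12221). Without erythroid-marker wells it was 0 (98 of 12098), and 0 in wells picked by the further genes (307 of 10883). With 1 plate left out it was 0 to 15 (2 to 1181 genes). The median log2 fold change was 0.48 in the main setting, 0.33 without a batch term and 0.94 with flow cell. The value with flow cell rests on double mutant replicates 1 and 2 and WT replicates 2 and 3. The median was 0.46 in session 1 alone and 0.23 in session 3 alone, each with 1 plate in a group. For the double mutant against Rev1 knockout 1 passed in the main setting, where 81 of 12221 genes were called higher. Without the filter 4 passed (545 of 19357) and by DESeq2 7 (406 of 12221). The number was 0 with RLE scaling (81 of 12221), without a batch term (196 of 12221), with flow cell (4 of 12221) and with expected counts (85 of 12198). It was also 0 at 3000 UMIs (89 of 12101), without erythroid-marker wells (42 of 12098), in picked wells (71 of 10883) and for both groups alone (31 of 11399). With 1 plate left out it was 0 to 3 (0 to 285 genes). In picked wells the double mutant log2 fold change against WT turned negative for Bub1b (-0.12), Kif2c (-0.11), Ect2 (-0.23), Anln (-0.28), Mki67 (-0.0759) and Top2a (-0.26), as did Ect2 in session 3 alone (-0.12) and Anln in thinned wells (-0.0445). The cause was not tested.

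The difference in expressing share was 11.4 to 26.03 points for the double mutant, -10.98 to 2.25 for Rev1 knockout and 6.36 to 18.2 for Pcna K164R with 1 plate left out. A threshold of 10 UMIs gave 0.720 points for the double mutant and 3.90 for Pcna K164R. The difference in level per expressing well was -1.55 to -0.975 for the double mutant, -0.422 to 0.279 for Rev1 knockout and -0.075 to 0.131 for Pcna K164R with 1 plate left out. In session 1 alone it was -0.478 for the double mutant, and 0.180 with another random thinning. For Rev1 knockout, at -0.008 in the main setting, it was 0.608 at 10 UMIs and -0.797 in picked wells. For Pcna K164R, at 0.043, it was 0.342 at 3 UMIs, 0.511 at 10 UMIs, 0.390 with another random thinning, 0.595 without mitochondrially encoded genes, 0.241 without thinning and 0.278 in session 1 alone.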
